A study of Mus musculus with 6 samples.

Results

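The serotonin system of cultured mouse sensory neurons was described through 10 genes, Slc6a4, which encodes the serotonin transporter, and 9 serotonin receptor genes, Htr3a, Htr3b, Htr1a, Htr1b, Htr1d, Htr1f, Htr2a, Htr4 and Htr7. They are 10 of the 45777 genes in the deposited table and 9 of 14 mouse serotonin receptor genes. The genes were chosen by family with the ONCM against PBS differences of these same libraries already known, Slc6a4 and Htr3a being among the larger ones, so their values in this contrast are a description and carry no p-value. The 6 libraries were dorsal root ganglion (DRG) neuron cultures from wild-type C57BL/6 mice, labelled adult, female and 8 weeks old. In the ONCM group, 3 cultures received recombinant oncomodulin, a small calcium-binding protein studied for its effect on axon growth, at 100 ng/ml for 12 hours. In the PBS group, 3 received phosphate-buffered saline in its place. The titles number them as biological replicates and name no separate animals or preparations, so errors measure the spread between these samples, which may be technical.

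Serotonin reaches sensory endings from platelets, mast cells and descending fibres, and acts there as a pain and itch mediator. The transporter takes it back up into cells. Htr3a and Htr3b encode subunits of a cation channel that serotonin opens directly, whereas the other receptors act through G proteins. The Htr1 receptors couple to Gi/o and lower cyclic AMP, Htr2a couples to Gq/11 and raises calcium, and Htr4 and Htr7 couple to Gs and raise cyclic AMP.

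The libraries held 53770820 to 60291315 counts with ONCM and 55920700 to 64477014 with PBS, and a floor of 3 counts corresponds to 0.0465 to 0.0558 CPM (read counts scaled to a common library size). Each of the 10 genes had at least 45 counts in every library, well above that floor. Mitochondrial genes took 2.73% to 2.92% of counts with ONCM and 2.89% to 3.06% with PBS. Ribosomal RNA genes took 0.179% to 0.194% of counts with ONCM and 0.238% to 0.259% with PBS, and 26576 to 26962 genes had a count above 0 with ONCM and 25936 to 26298 with PBS, ranges that do not overlap. The part of these differences in the results was not tested. The groups differed in sex-linked transcripts although every label says female. Xist, transcribed from the inactive X chromosome, stood at 513, 506 and 413 CPM in the ONCM libraries, against 0.588, 0.518 and 0.485 CPM in the PBS libraries. Ddx3y, a Y-linked RNA helicase gene, stood at 16.2, 16.9 and 15.1 CPM with ONCM, against 61.0, 58.1 and 62.4 CPM with PBS. No library of either group had the sex-linked profile of the other, so for every difference below oncomodulin and the source of the cells cannot be told apart. In these bulk libraries, fewer cells of a type and less RNA per cell cannot be told apart.

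The transporter was far higher with ONCM, 7 of the 9 receptors were lower, and Htr1f and Htr2a were slightly higher. All 10 genes had ranges of CPM that did not overlap between the groups, as did 55.6% of the 20354 genes tested. All 10 passed edgeR's quasi-likelihood test at an adjusted p under 0.05, 3 higher and 7 lower, where 48.3% of tested genes passed, 23.9% higher and 24.4% lower. On log2(TPM + 1), TPM being a length-corrected transcript level, the share of passing genes that were higher was 39.3%, against 49.5% on counts, and Htr1f no longer passed. A difference of at least 2-fold that also passed was seen for 5 of the 10 genes, and for 8.19% of tested genes. Nothing is read from these counts, because the contrast was known when the genes were chosen. The median log2 fold change was -0.80 over the 10 genes and -0.002 over all tested genes.

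**Figure D1:**
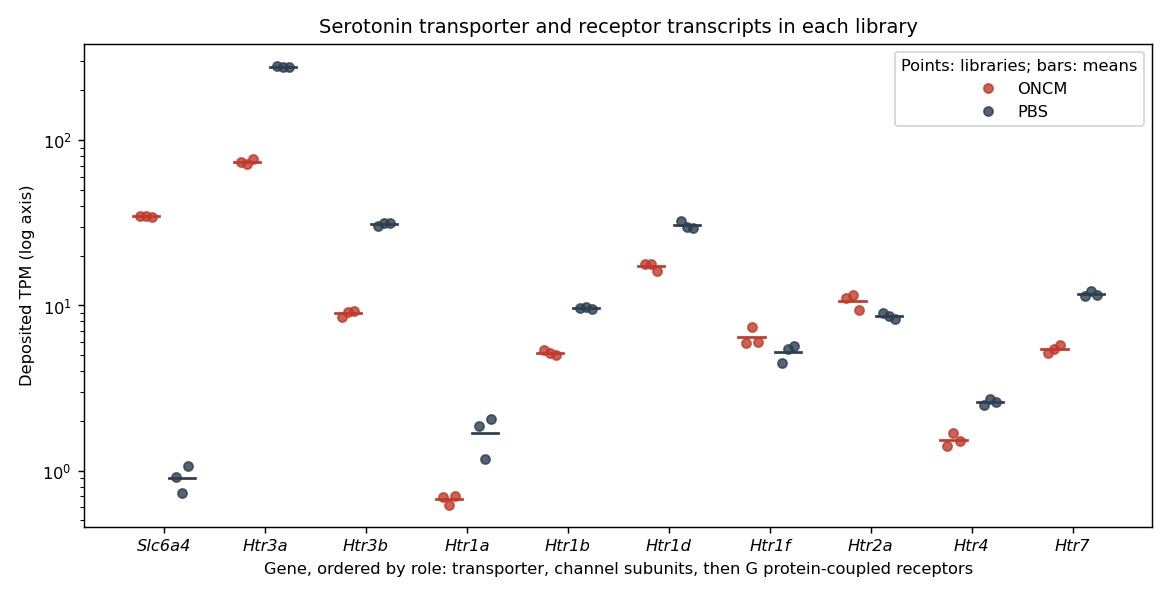
Deposited TPM of the 10 genes on a log axis, with ONCM libraries left of PBS libraries; points are libraries and bars are group means of 3. Slc6a4 lies between 34.4 and 35.0 TPM with ONCM and between 0.732 and 1.07 TPM with PBS, while Htr3a is the highest of the 10 genes in both groups.

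Slc6a4 (chromosome 11, 76998597 to 77032343) was counted 2114, 2348 and 2205 times in the ONCM libraries and 65, 45 and 68 times in the PBS libraries. These counts correspond to 39.3, 39.1 and 39.5 CPM with ONCM, against 1.00, 0.805 and 1.18 CPM with PBS. The transporter was low but detected in every PBS library, and the 3 ONCM libraries lay close together far above them. The mean was 39.3 ± 0.192 CPM with ONCM and 0.996 ± 0.186 CPM with PBS (SD, n = 3 each), a log2 fold change of 5.30 (SE 0.09). That was the 38th highest of the 20354 fitted values. Per length, the transporter averaged 34.8 TPM with ONCM, the second highest of the 10 genes, against 0.910 TPM with PBS, the lowest of them. It stood above 75.9% of tested genes in TPM with ONCM and above 22.4% with PBS.

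The start regions of Slc6a4 and Htr3b are printed because these genes had the largest difference in each direction among the 8 of the 10 genes with a window in the RefSeq table. The windows, of assembly GRCm38.p6, run from 250 bases before to 50 bases after the annotated start. Capitals mark the 50 bases from the start onward. The Slc6a4 window is chr11:76998347-76998646 on the plus strand, and the Htr3b window is chr9:48964941-48965240 on the minus strand.
Slc6a4: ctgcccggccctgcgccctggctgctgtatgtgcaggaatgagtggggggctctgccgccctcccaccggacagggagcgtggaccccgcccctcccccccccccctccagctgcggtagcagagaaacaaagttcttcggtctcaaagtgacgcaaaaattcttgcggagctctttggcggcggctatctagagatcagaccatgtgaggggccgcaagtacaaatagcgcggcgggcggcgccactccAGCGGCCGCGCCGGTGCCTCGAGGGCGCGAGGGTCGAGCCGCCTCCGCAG
Htr3b: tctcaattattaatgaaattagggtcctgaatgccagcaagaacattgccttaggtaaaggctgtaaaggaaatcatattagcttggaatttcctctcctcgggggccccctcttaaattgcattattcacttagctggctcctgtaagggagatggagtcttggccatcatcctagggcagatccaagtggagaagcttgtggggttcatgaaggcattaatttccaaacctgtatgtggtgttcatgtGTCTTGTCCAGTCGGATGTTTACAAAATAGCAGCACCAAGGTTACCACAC
They differ in base composition, with 67.7% G and C for Slc6a4 and 44.3% for Htr3b, against a median of 52.7% over 32851 windows. The cyclic AMP response element TGACGTCA, the AP-1 elements TGAGTCA and TGACTCA, and the STAT element TTCNNNGAA were searched on both strands, where each reads the same or, for AP-1, as its partner. They were found in 1.79%, 5.20% and 8.30% of all windows, and in 0 of the 9 windows of the 8 genes (Htr1d has a pair). The first shares its opening letters TGAC with an AP-1 element, and no element holds another whole. No match says only that these letters are absent from these 300 bases.

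The channel subunit genes showed the largest differences among the receptors. Htr3a (chromosome 9, 48899213 to 48911152), the subunit that can form the channel alone, had 62.2, 60.4 and 66.1 CPM with ONCM, against 228, 226 and 227 CPM with PBS. It was lower in every ONCM library, at 27.7% of the PBS level, a log2 fold change of -1.85 (SE 0.04). Htr3b (chromosome 9, 48935008 to 48964990), a subunit that needs Htr3a to reach the surface, had 8.44, 8.93 and 9.30 CPM with ONCM, against 28.5, 29.9 and 30.1 CPM with PBS. Its log2 fold change was -1.73 (SE 0.06), or 30.1% of the PBS level. The genes lie 23856 bases apart and kept nearly the same proportion. Htr3a TPM was 8.58, 7.89 and 8.30 times Htr3b TPM with ONCM, against 9.30, 8.80 and 8.76 times with PBS. The ratio was slightly lower in all 3 ONCM libraries. Htr3a stood above 87.7% of tested genes in TPM with ONCM and above 97.0% with PBS.

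Among the Gi/o-coupled receptors, 3 were lower and 1 was higher. Htr1a (chromosome 13, 105443693 to 105448133), the autoreceptor of brain serotonin neurons, was the sparsest of the 10 genes with ONCM, counted 68, 68 and 74 times there and 209, 117 and 210 times with PBS. Its CPM was 1.26, 1.13 and 1.32 with ONCM, against 3.23, 2.09 and 3.63 with PBS, so PBS replicate 2 lay apart from the other PBS libraries and still above all 3 ONCM libraries. The log2 fold change was -1.27 (SE 0.19), and on log2(TPM + 1), which understates the change of low genes, it was -0.67. Htr1b (chromosome 9, 81628291 to 81633832), a presynaptic receptor that restrains transmitter release, had 10.47, 9.93 and 9.89 CPM with ONCM, against 17.9, 18.3 and 17.7 CPM with PBS. The libraries of each group lay close together, and the log2 fold change was -0.83 (SE 0.06).

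Htr1d (chromosome 4, 136423522 to 136444405), with Htr1b a target of the triptan migraine drugs, had 21.6, 21.4 and 19.8 CPM with ONCM, against 36.9, 34.8 and 34.9 CPM with PBS. It was lower in every ONCM library, with a log2 fold change of -0.76 (SE 0.05). Htr1d TPM was 3.30, 3.46 and 3.24 times Htr1b TPM with ONCM, and 3.34, 3.04 and 3.12 times with PBS, ranges that overlap. Htr1f (chromosome 16, 64924729 to 65105784), the target of the ditan migraine drugs, went the other way. Its CPM was 6.12, 7.61 and 6.27 with ONCM, against 4.41, 5.38 and 5.69 with PBS, a log2 fold change of 0.37 (SE 0.11). The lowest ONCM library was only slightly above the highest PBS library. It was 0.27 without ONCM replicate 2, 0.26 without PBS replicate 1 and 0.26 on log2(TPM + 1), and did not pass the threshold in these fits.

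Htr2a (chromosome 14, 74640874 to 74706859), the Gq/11-coupled receptor, had 13.4, 13.9 and 11.54 CPM with ONCM, against 10.4, 10.01 and 9.66 CPM with PBS. The difference was small but in the same direction for every library, with a log2 fold change of 0.37 (SE 0.08). Among the Gs-coupled receptors, Htr7 (chromosome 19, 35958415 to 36058133) had 7.29, 7.71 and 8.24 CPM with ONCM, against 15.4, 16.3 and 15.9 CPM with PBS. That is 48.8% of the PBS level, with a log2 fold change of -1.03 (SE 0.07). Htr4 (chromosome 18, 62323546 to 62503027) had 4.67, 5.13 and 5.32 CPM with ONCM, against 7.86, 7.69 and 7.39 CPM with PBS. Its log2 fold change was -0.60 (SE 0.09), the smallest of the 7 lower receptors.

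**Figure D2:**
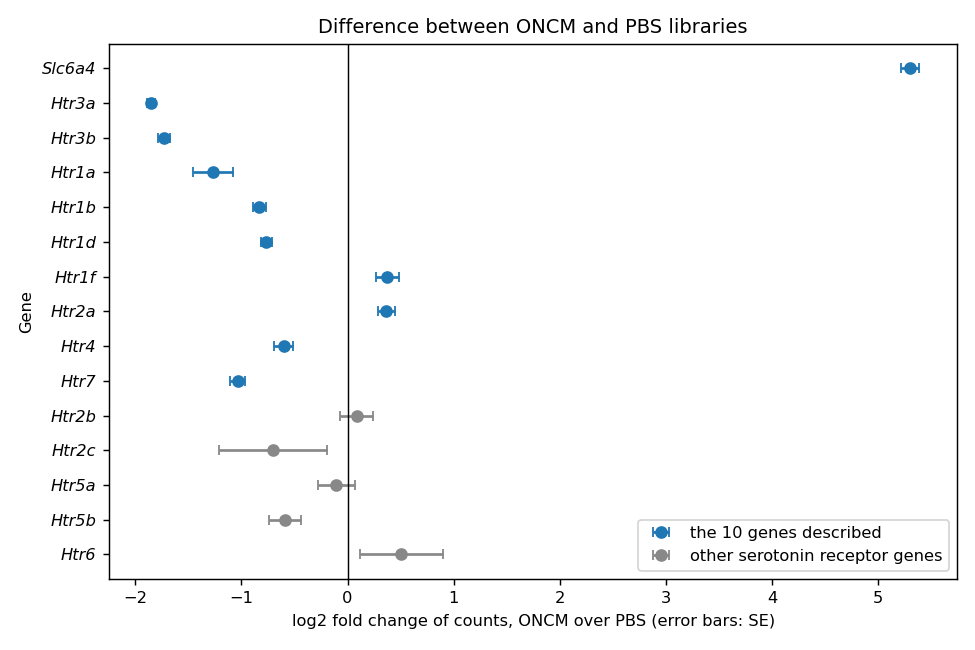
Log2 fold change of counts, ONCM over PBS, with its SE from 3 libraries per group, for the 10 genes (blue) and for the serotonin receptor genes outside them (grey). Slc6a4 stands alone at 5.30, the 7 lower receptors lie between -1.85 and -0.60, and Htr1f and Htr2a lie at 0.37.

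The order of the levels, which is given in TPM because it corrects for transcript length, changed with the groups. With ONCM it ran Htr3a (73.9 ± 2.51 TPM), Slc6a4 (34.8 ± 0.288), Htr1d (17.3 ± 0.949), Htr2a (10.7 ± 1.15), Htr3b (8.96 ± 0.361), Htr1f (6.45 ± 0.858), Htr7 (5.43 ± 0.306), Htr1b (5.18 ± 0.204), Htr4 (1.54 ± 0.141) and Htr1a (0.674 ± 0.0458). In that order only Htr7 and Htr1b had overlapping ranges. With PBS it ran Htr3a (278 ± 3.02 TPM), Htr3b (31.1 ± 0.704), Htr1d (30.6 ± 1.44), Htr7 (11.7 ± 0.363), Htr1b (9.67 ± 0.168), Htr2a (8.65 ± 0.388), Htr1f (5.20 ± 0.641), Htr4 (2.60 ± 0.0973), Htr1a (1.70 ± 0.455) and Slc6a4 (0.910 ± 0.171), all SD with n = 3. There only Htr3b and Htr1d had overlapping ranges. Htr2a TPM was 2.17, 2.14 and 1.64 times Htr7 TPM with ONCM, against 0.790, 0.710 and 0.711 times with PBS, so the order of these receptors differed.

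The 9 receptors together had 129.4, 130.5 and 130.4 TPM with ONCM, against 383.0, 378.1 and 376.7 TPM with PBS. Most of that gap lay in the channel subunits, at 82.8 ± 2.67 TPM with ONCM and 309 ± 2.32 TPM with PBS (SD, n = 3 each). The channel subunits made up 63.3%, 61.9% and 65.8% of the receptor TPM with ONCM, against 81.4%, 81.5% and 81.6% with PBS. The Gi/o-coupled receptors summed to 29.6 ± 1.60 TPM with ONCM and 47.2 ± 0.976 TPM with PBS, which was 22.7% of the receptor TPM with ONCM and 12.4% with PBS. Htr2a made up 8.23% with ONCM and 2.28% with PBS. The Gs-coupled pair summed to 6.96 ± 0.387 TPM with ONCM and 14.4 ± 0.459 TPM with PBS, shares of 5.35% with ONCM and 3.79% with PBS. Shares add up to a whole, and the Gi/o and Gs classes had a larger share and a lower level with ONCM.

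**Figure D3:**
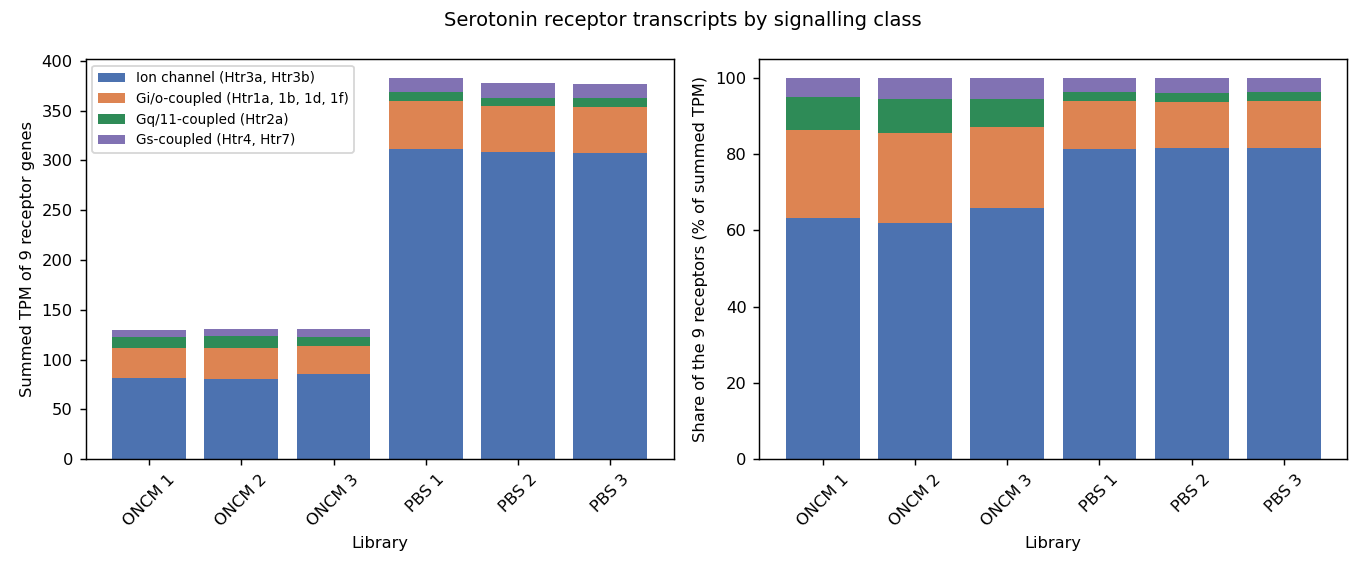
Summed TPM of the 9 receptor genes by signalling class (left) and the share of each class (right), with a bar for each library and ONCM libraries left of PBS libraries. The channel class is at 81.9, 80.8 and 85.8 TPM in ONCM libraries, against 312, 308 and 307 TPM in PBS libraries, and the receptor total is 129.4 to 130.5 TPM with ONCM, against 377 to 383 TPM with PBS.

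The remaining 5 serotonin receptor genes, listed to complete the family, were low in both groups. Of these, 1 fell, 0 rose and 4 did not pass edgeR's test. Htr5b, a Gi/o-coupled receptor gene of rodents, had 1.45, 1.58 and 1.52 CPM with ONCM, against 2.04, 2.50 and 2.32 CPM with PBS (log2 fold change -0.59, SE 0.15, adjusted p = 0.00331). Htr2b averaged 2.50 ± 0.298 CPM with ONCM and 2.37 ± 0.434 CPM with PBS, and Htr5a 1.73 ± 0.339 CPM with ONCM and 1.86 ± 0.232 CPM with PBS, with overlapping ranges. Htr2c and Htr6 stayed below 0.5 CPM in every library, where differences of the size seen for Htr1f were not detectable.

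Around the receptors and the transporter, 3 lists of genes were taken by function and tested in the same fit, with p-values adjusted over all tested genes. In the list for serotonin synthesis, vesicle loading, low-affinity uptake and breakdown, 17 of 20 genes could be tested, of which 3 rose, 5 fell and 9 did not pass, with a median log2 fold change of -0.09. Tph1 and Tph2, the tryptophan hydroxylase genes that set the rate of serotonin synthesis, stood near 2 CPM. Tph1 averaged 2.04 ± 0.265 CPM with ONCM and 2.58 ± 0.0990 CPM with PBS (edgeR adjusted p = 0.0502), and Tph2 1.97 ± 0.143 CPM with ONCM and 2.14 ± 0.178 CPM with PBS (edgeR adjusted p = 0.52). With ONCM replicate 1 left out Tph1 had -0.41 and passed (edgeR adjusted p = 0.0464), as it did when replicate 3 was left out, at -0.40 (edgeR adjusted p = 0.0493), on log2(TPM + 1), at -0.24 (limma adjusted p = 0.0418), and without chromosomes X, Y and MT, at -0.35 (edgeR adjusted p = 0.049).

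Ddc, the decarboxylase of the next step, fell to 0.831 ± 0.185 CPM with ONCM, against 1.27 ± 0.221 CPM with PBS (log2 fold change -0.60, edgeR adjusted p = 0.0338). That call was lost without ONCM replicate 1 or 3 or PBS replicate 2 or 3 (log2 fold changes of -0.44, -0.62, -0.50 and -0.56, adjusted p = 0.0562 to 0.14) and in DESeq2 (adjusted p = 0.072). Gch1, the first enzyme of the tetrahydrobiopterin cofactor that hydroxylases need, rose to 16.5, 15.4 and 16.9 CPM with ONCM, against 10.8, 11.2 and 11.7 CPM with PBS. Its log2 fold change was 0.53 (SE 0.07, edgeR adjusted p = 1.77e-06). The cofactor gene Pcbd1, which recycles it, had a log2 fold change of -0.19 (edgeR adjusted p = 0.0279), lost without ONCM replicate 1 or 2 or PBS replicate 3 (adjusted p = 0.0721 to 0.166).

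Breakdown genes were mixed. Aldh2, an aldehyde dehydrogenase that acts after monoamine oxidase, fell to 73.5, 74.8 and 82.5 CPM with ONCM, against 108.6, 106.8 and 102.3 CPM with PBS (log2 fold change -0.46, SE 0.04, edgeR adjusted p = 4.53e-08). Maob, a monoamine oxidase gene, averaged 1.01 ± 0.146 CPM with ONCM and 1.47 ± 0.168 CPM with PBS (log2 fold change -0.54, edgeR adjusted p = 0.0245). That call was lost without ONCM replicate 3 or PBS replicate 2 or 3 (adjusted p = 0.0655 to 0.0963) and in DESeq2 (adjusted p = 0.0668). Slc22a2, a low-affinity organic cation transporter, fell to 0.744, 0.783 and 0.376 CPM with ONCM, against 1.253, 0.930 and 1.47 CPM with PBS (log2 fold change -0.94, SE 0.27, edgeR adjusted p = 0.00696). Slc29a4, a low-affinity monoamine transporter, had 53.5 ± 5.22 CPM with ONCM and 54.3 ± 1.56 CPM with PBS and did not pass (adjusted p = 0.796).

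Of 9 receptor and transporter partners and transcription factors of serotonin neurons, 7 rose, 1 fell and 1 did not pass, with a median log2 fold change of 0.26. S100a10, an adaptor that carries Htr1b and Htr4 to the cell surface, rose to 629, 578 and 588 CPM with ONCM, against 306, 310 and 326 CPM with PBS (log2 fold change 0.93, SE 0.03, edgeR adjusted p = 1.37e-13). The phosphatase subunit gene Ppp2ca, the syntaxin gene Stx1a and the chaperone gene Ric3, whose proteins act on the transporter or the channel, rose by 0.26, 0.31 and 0.21 on the log2 scale (edgeR adjusted p = 3.58e-07, 4.09e-05 and 1.09e-04). Gata2, a transcription factor of serotonin neurons, rose to 2.75 ± 0.152 CPM with ONCM, against 1.85 ± 0.280 CPM with PBS (edgeR adjusted p = 0.0031). Gata3 rose to 1.14 ± 0.136 CPM with ONCM, against 0.408 ± 0.149 CPM with PBS (log2 fold change 1.48, SE 0.27, edgeR adjusted p = 1.47e-04). Lmx1b fell to 2.25 ± 0.194 CPM with ONCM, against 2.99 ± 0.132 CPM with PBS (log2 fold change -0.41, edgeR adjusted p = 0.0126), which did not hold with ONCM replicate 1 left out (-0.35, adjusted p = 0.0542) nor on log2(TPM + 0.1) (limma adjusted p = 0.0666). Fev, the factor most specific to brain serotonin neurons, averaged 0.130 CPM with ONCM and 0.254 CPM with PBS and did not pass (edgeR adjusted p = 0.122), except without PBS replicate 3 (-1.30, adjusted p = 0.0486).

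Of 10 tested transporters of the same SLC6 family, 5 rose, 1 fell and 4 did not pass, with a median log2 fold change of 0.11. Slc6a2, the noradrenaline transporter, rose to 4.57, 5.58 and 5.82 CPM with ONCM, against 3.82, 3.52 and 4.57 CPM with PBS (log2 fold change 0.42, SE 0.12, edgeR adjusted p = 0.00683). The lowest ONCM and the highest PBS library all but touched, and Slc6a2 did not pass on log2(TPM + 1) (limma adjusted p = 0.0827). Slc6a3, the dopamine transporter, was at 0 in 5 of 6 libraries. Slc6a5, a glycine transporter, rose to 0.650 ± 0.0455 CPM with ONCM, against 0.258 ± 0.00653 CPM with PBS (log2 fold change 1.33, SE 0.30, edgeR adjusted p = 0.00125). Slc6a15 rose by 0.22 and Slc6a17 fell by 0.41 on the log2 scale (edgeR adjusted p = 4.98e-06 and 4.72e-09), both amino acid transporters of neurons. Slc6a8, the creatine transporter, rose by 0.11 on the log2 scale (edgeR adjusted p = 0.0058) and did not pass on log2(TPM + 1) (limma adjusted p = 0.176). Over these lists and the 5 receptors, 23 of 41 tested genes passed, 15 higher and 8 lower on counts and 10 higher and 10 lower on log2(TPM + 1), beside 48.3% of all tested genes on counts.

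**Figure D4:**
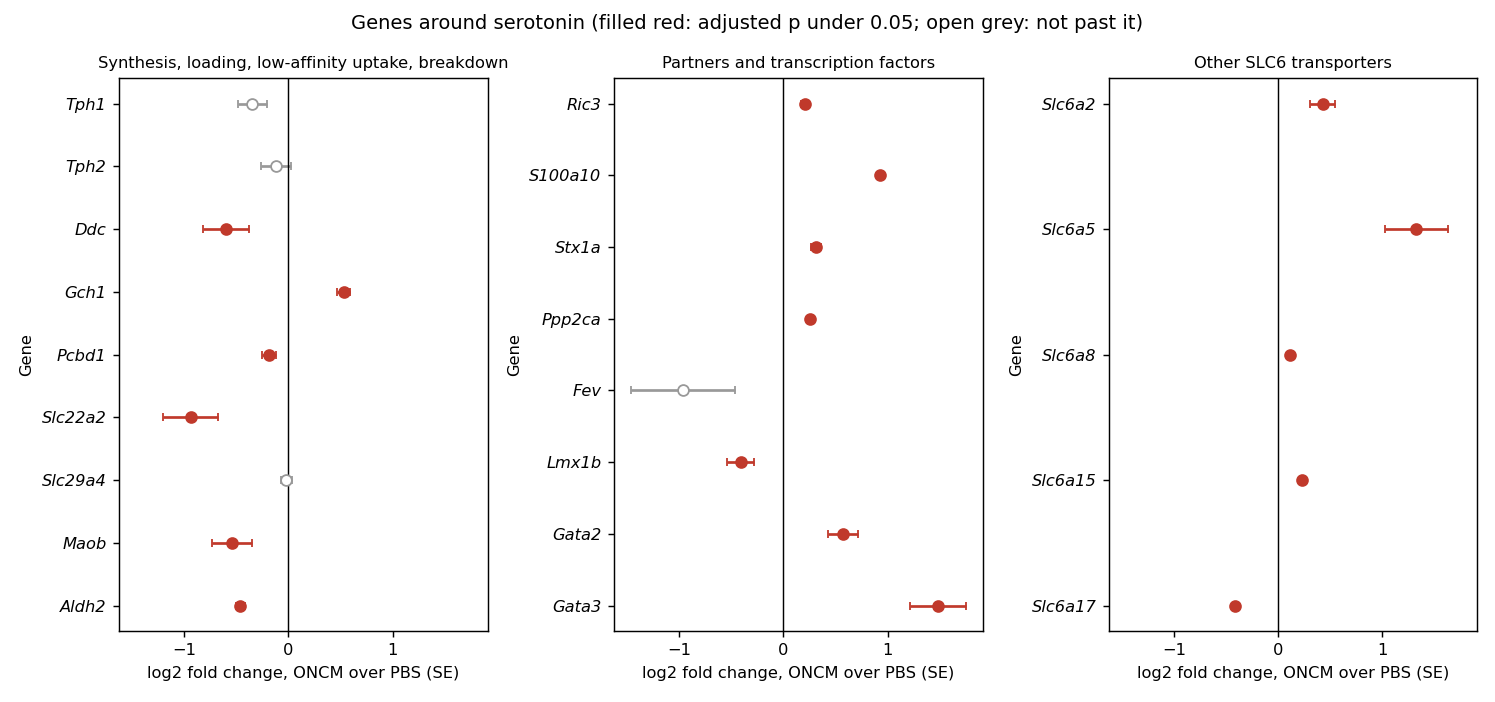
Log2 fold change, ONCM over PBS, with its SE from 3 libraries per group, for the genes of the 3 lists that are named in the text. Filled red points passed an adjusted p of 0.05 and open grey points did not. Gata3 and Slc6a5 have the largest rises, 1.48 and 1.33, and none of these genes comes near the 5.30 of Slc6a4.

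The genes whose profile over the 6 libraries was nearest to that of Slc6a4 were ranked by the root mean square difference between log2 CPM values, each centred on its own PBS mean, among 15276 genes averaging at least 1 CPM. They were Igfn1 (0.116), Kcnk16 (0.125), Car3 (0.319), Gal (0.384) and 1700003F12Rik (0.570). Igfn1, an immunoglobulin-domain gene of muscle, averaged 11.8 CPM with ONCM and 0.298 CPM with PBS, and the potassium channel gene Kcnk16 averaged 9.35 CPM with ONCM and 0.241 CPM with PBS. Nearest to Htr3a were Fam205a2 (0.081), Crybb1 (0.090), Htr3b (0.097), Ddx3y (0.101) and Gm2163 (0.129). Fam205a2 has near-identical copies that can share reads, so its value is uncertain. Htr3b was thus among the genes nearest to Htr3a, and Y-linked Ddx3y was about as near, at 16.1 ± 0.933 CPM with ONCM and 60.5 ± 2.17 CPM with PBS.

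The nearest tested protein-coding genes on either side were also read, a choice made after the values of the 10 genes were seen. Of 18 such neighbours outside the family, 4 rose, 5 fell and 9 did not pass edgeR's test. Beside Slc6a4, Blmh, a peptidase gene 11208 bases away, rose by 0.25 on the log2 scale (edgeR adjusted p = 1.41e-05), and Nsrp1, a splicing protein gene 11949 bases away, had 0.06 (adjusted p = 0.44). Beside the channel subunit genes, Zbtb16, a zinc finger gene, fell by 0.88 (edgeR adjusted p = 8.61e-07) and Usp28, a deubiquitinase gene, had -0.02 (adjusted p = 0.809). Noncoding genes overlap Slc6a4, Htr3a, Htr1b and Htr4 in the RefSeq table, and the strand setting of the counts is not given, so reads could be shared. The overlapping genes had at most 15 counts in a library at Slc6a4, Htr3a and Htr4, and 98 to 134 counts at Htr1b.

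Markers of the cells that could carry these transcripts were read beside them. Among 11 pan-neuronal genes there were 3 rises, 6 falls and 2 that did not pass, and their sum was 18019 to 19062 CPM with ONCM and 17232 to 17720 CPM with PBS. Tubb3 and Stmn2, cytoskeletal genes, rose to 3618 ± 170 CPM and 2806 ± 34.9 CPM with ONCM, against 2074 ± 25.3 CPM and 1625 ± 22.9 CPM with PBS (edgeR adjusted p = 1.51e-13 and 1.04e-14). The RNA-binding protein genes Rbfox3 and Elavl4, the synaptic gene Snap25 and the sensory neuron factor Isl1 fell to 63.0%, 67.2%, 69.1% and 73.8% of their PBS levels (edgeR adjusted p = 1.44e-11, 1.1e-07, 4.34e-12 and 5.47e-08). Avil and Prph, abundant in sensory neurons, did not pass, Avil having 967 ± 23.6 CPM with ONCM and 992 ± 12.2 CPM with PBS (edgeR adjusted p = 0.279). These markers of neurons were chosen for naming after their values were seen. Htr1f and Htr2a are known from mouse single-cell studies as markers of an itch neuron class that makes natriuretic peptide B and somatostatin. Of 6 markers of that class, 2 rose, 3 fell and 1 did not pass. Il31ra, an itch cytokine receptor gene, rose to 25.1, 25.5 and 21.7 CPM with ONCM, against 17.4, 17.2 and 16.6 CPM with PBS (edgeR adjusted p = 2.77e-06). Sst, the somatostatin gene, fell to 0.818, 0.716 and 0.896 CPM with ONCM, against 2.41, 2.16 and 2.02 CPM with PBS (edgeR adjusted p = 1.38e-06). Nppb, the natriuretic peptide B gene, also fell, to 2.49 CPM with ONCM, against 3.13 CPM with PBS (edgeR adjusted p = 0.0396). Cysltr2 fell to 72.8% of its PBS level (edgeR adjusted p = 0.026), and Osmr did not pass (edgeR adjusted p = 0.194). The other rise was the kinase gene Jak1, at 658 CPM with ONCM and 484.5 CPM with PBS (edgeR adjusted p = 1.37e-10). The class markers thus moved in both directions, and the genes of both peptides fell.

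Platelets carry the serotonin transporter, and mast cells hold serotonin in rodents. Of 9 platelet and megakaryocyte markers 4 could be tested, of which 3 rose and 1 did not pass, and the summed level was 20.5 to 24.5 CPM with ONCM and 12.8 to 15.5 CPM with PBS. The ones that rose were Itga2b, at 12.0 CPM with ONCM and 9.01 CPM with PBS, Gp1bb, at 7.49 CPM with ONCM and 3.93 CPM with PBS, and Pf4, at 2.07 CPM with ONCM and 0.871 CPM with PBS. Among the defining ones Treml1 was at 0 in all 6 libraries, Gp9 averaged 0.0464 CPM with ONCM and 0.0443 CPM with PBS, and Gp1ba averaged 0.0521 CPM with ONCM and 0.0173 CPM with PBS. Among 8 tested mast cell markers (9 listed) there were 2 rises, 3 falls and 3 that did not pass, and the list's sum was 41.7 to 43.2 CPM with ONCM and 52.3 to 55.0 CPM with PBS. Most of that was Kit, a receptor also made by sensory neurons, which fell to 34.1 CPM with ONCM, against 46.5 CPM with PBS. The mast cell carboxypeptidase gene Cpa3 averaged 0.175 CPM with ONCM and 0.390 CPM with PBS (edgeR adjusted p = 0.0315). Ms4a2 also fell, to 0.103 CPM with ONCM, against 0.290 CPM with PBS (edgeR adjusted p = 0.0449). Both calls rest on few reads, with 4, 13 and 13 ONCM counts for Cpa3 and 7, 0 and 10 for Ms4a2. The rises were Hdc, at 4.985 CPM with ONCM and 3.451 CPM with PBS, and Tpsab1, at 0.9218 CPM with ONCM and 0.5775 CPM with PBS.

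Of 10 macrophage markers 9 rose and 1 did not pass, with a summed level of 132 to 138 CPM with ONCM and 37.9 to 42.2 CPM with PBS. Fibroblast markers rose in 4 of 6 cases and summed to 429 to 449 CPM with ONCM and 296 to 300 CPM with PBS. Endothelial markers rose in 3 of 6 cases and summed to 146 to 153 CPM with ONCM and 126 to 130 CPM with PBS. Schwann cell markers had 4 rises and 1 fall among 9, and their sum was 3610 to 3778 CPM with ONCM and 3500 to 3564 CPM with PBS. Satellite glia markers had 2 rises and 1 fall among 7, and their sum was 1890 to 2043 CPM with ONCM and 1850 to 1918 CPM with PBS. The part of these cells in the level of the transporter and the receptors was not tested.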

How the data were processed

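RNA sequencing libraries of 6 cultures were compared, 3 ONCM and 3 PBS, grouped by their titles. The deposited table holds raw read counts per gene, which the authors gave for each library. It also holds TPM and FPKM values computed by the authors and deposited beside the counts, and the FPKM values were not used. Columns were matched to samples by shared codes. The build is mm10, per the submitters' processing notes, while for aligner, counter, annotation release and strand setting the entry is "not given in the sources used here". Names and positions come from RefSeq for GRCm38.p6, which held 45679 of the 45777 gene IDs, and 8 of the 10 genes matched a start region there. A planned comparison of protein sequences was not run, and protein sequences were not used here.

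The test on counts was edgeR 4.0.16 under R 4.3.3 (filterByExpr, TMM scaling, robust quasi-likelihood F-test, ONCM over PBS, no covariate), with Benjamini-Hochberg adjustment over all 20354 tested genes and a threshold of 0.05. Each SE was taken from the F statistic, as the absolute log2 fold change over F's square root. CPM is scaled by TMM, and errors are SD with n = 3. Alternatives used DESeq2 1.42.0 or limma 3.58.1 on log2(TPM + 1) and log2(TPM + 0.1), no filter on low counts, each library left out, a replicate block, and genes outside chromosomes X, Y and MT. The fit was also run on simulated counts in which far fewer genes differed than passed here. That run does not settle its accuracy on these libraries. Replicates differed by more than sampling noise (chi-square per degree of freedom 2.76 to 7.09 over genes with at least 20 counts), so all were kept. Floors allow for counting error alone, since PCR copies of a molecule could not be removed.

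The genes and lists were chosen with earlier results of these data known. Named are all 10 genes, the family's other receptors, and from each functional list up to 6 genes that passed with a mean of at least 1 CPM, by size of change. Others in those lists were named for their role, and Gata3, Slc6a5 and Slc22a2, below that mean, after their values were seen. The 5 genes nearest to Slc6a4 and to Htr3a are also named. Some genes of the functional lists are counted but not reported singly here.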

Additional observations from a re-analysis of the deposited data

How the results depend on the processing

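Each of the 10 genes was refitted under 13 alternatives, and all 130 values kept their direction, 126 of them on the same side of the threshold. The exceptions were 4 values of Htr1f, which did not pass without ONCM replicate 2, without PBS replicate 1, or on either TPM scale (0.26 on log2(TPM + 1) and 0.31 on log2(TPM + 0.1)). Slc6a4 ranged from 4.23 to 5.42 on the log2 scale, Htr3a from -1.91 to -1.82 and Htr1a from -1.47 to -0.67, the last on log2(TPM + 1), where a pseudocount shrinks low genes. Of 529 values for the genes of the functional lists, 38 lost the call, 8 gained it and 0 reversed. The number of tested genes that passed was 9829, and 8752 to 9537 with a library left out, 9017 in DESeq2, 9202 on log2(TPM + 1) and 9471 without chromosomes X, Y and MT, which cannot remove an effect of the source of the cells. With the replicate block 9597 genes, 10 of the 10 genes and 23 list genes passed, so the block changed none of these counts by over 1.5 times. Same-numbered ONCM and PBS libraries did not deviate together (correlations of -0.05, -0.01 and 0.00 across genes), so no pairing by number was seen. With 3 libraries per group, these correlations cannot exclude that same-numbered cultures shared a preparation. Depth limits the precision of Slc6a4 with PBS, where 45 to 68 counts stand behind each value.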
